A study of Mus musculus with 6 samples.

Results

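The long non-coding RNAs (lncRNAs) that CD11b+ cells of the mouse brain expressed were described here. They were chosen by their annotation and their level: the rows whose deposited gene type is lncRNA and whose mean over the 6 libraries is at least 10 cpm. Of 1833 listed lncRNA rows, 100 met this rule. They are part of the 6659 genes of any type that reached the same mean, out of 19225 listed. Since measured values selected them, their level is a description and is not tested.

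The cells were enriched with CD11b magnetic beads from the perfused brains of stress-naive male mice, with 1 library made from each mouse. The 3 mice labelled Cnr1-/- carried the Cnr1 tm1Zim allele (d/d), which removes the cannabinoid receptor 1 from all cells, and the 3 mice labelled Cnr1+/+ were wt/wt with the strain given as C57BL6/J. The labels give an age of 3 months for both groups, and the study's methods describe the mice as younger littermates. QuantSeq reads the 3′ end of a transcript after priming on a run of A, so values in cpm (reads scaled to library size) were not divided by gene length.

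lncRNAs are transcripts that are not translated into a protein of known function. Some stay in the nucleus, where they build or locate to bodies such as speckles and paraspeckles. Others release a small nucleolar RNA or a microRNA from an intron when they are spliced, and others act on neighbouring genes, as imprinted RNAs do. Most are found at lower levels than messenger RNAs.

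Cnr1 was listed at 0 cpm in all 3 libraries labelled Cnr1+/+ and at 1.41, 1.21 and 1.79 cpm in those labelled Cnr1-/-. Values above 0 only under the label Cnr1-/- are the reverse of what the genotypes would give. However, the study states that microglia have hardly any of this receptor, so a 0 under the label Cnr1+/+ says little. In its allele, a neomycin cassette disrupts the coding region. The values do not show which part of the gene the reads came from, and a 3′ tag outside the disrupted part checks nothing. Whether the labels are right was not tested. Directions below therefore follow the labels of the libraries. A value of 1 read gave library sizes between 7708810 and 10723823 reads, and a listed 0 allows between 0.280 and 0.389 cpm (3 reads), for counting error only. Summed levels lay between 14958 and 17450 cpm for the 10 microglial markers and between 40.6 and 55.4 cpm for the 9 neuronal ones. The library labelled Cnr1-/- replicate 2 stood apart, with 3989 cpm of 8 listed neutrophil markers against 260 to 514 cpm elsewhere and 2342 cpm of 7 erythrocyte markers against 136 to 237 cpm. The neutrophil marker Elane was not listed. In such bulk samples, fewer cells of a type and less RNA per cell cannot be told apart.

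A few sequences show what the values of these lncRNAs rest on. Malat1 and Bc1 are shown because both are abundant and both hold runs of A inside the transcript, which is the base that oligo(dT) primes on. The first line is bases 6614 to 6733 of the 6983-base Malat1 transcript (GENCODE vM21, chr19:5795940-5796059, minus strand) and the second is the whole Bc1 transcript of 168 bases (chr7:144914470-144914637, plus strand), each with its A runs in capitals. A run of 12 or more A lay in the last 320 bases of 6 of the 94 members found in vM21 (6.38%), against 1.56% of the other lncRNA genes and 2.30% of the protein-coding genes. Malat1 is among the 6, with a run of exactly 12 A near the far edge of that window, and so just meets both limits. The members had been chosen by level in these libraries and the other genes had not. These shares are therefore not like for like. Whether these runs contributed reads was not tested.
Malat1: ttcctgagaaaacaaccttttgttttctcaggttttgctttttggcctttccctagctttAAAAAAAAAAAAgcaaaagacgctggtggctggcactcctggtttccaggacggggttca
Bc1: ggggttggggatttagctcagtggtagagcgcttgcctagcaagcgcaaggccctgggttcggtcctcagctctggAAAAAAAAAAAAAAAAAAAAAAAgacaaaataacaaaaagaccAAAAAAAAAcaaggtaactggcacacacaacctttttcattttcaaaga

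A stretch that belongs to 2 listed genes at once is shown because these genes had the largest fold changes between the genotype labels among the members. The values give no read positions, so whether the difference lies in this stretch is not known. Shown are the last 120 bases of the Gm21860 transcript, whose 309 bases lie at chrY:90754513-90754821 on the minus strand. All 309 bases recur without a mismatch at bases 232 to 540 of the 2380-base transcript of G530011O06Rik on chromosome X.
Gm21860: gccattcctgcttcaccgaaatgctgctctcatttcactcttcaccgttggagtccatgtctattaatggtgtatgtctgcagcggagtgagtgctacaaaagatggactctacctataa

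Small nucleolar RNA host genes are known for a pyrimidine tract at their first bases. Of the host genes among the members, 9 with 10 RefSeq starts were read, and Epb41l4aos was left out. The 4 starts that begin with C or T are shown. The other 6, including another RefSeq start of Gas5, do not begin with C or T. Each line gives 10 bases before the RefSeq start (GRCm38.p6) and 20 after it, with the unbroken C or T letters from the start in capitals. At least 4 such letters stood at 3 of 10 starts of these host genes, at 7 of 55 starts of members (12.7%) and at 6.86% of all 32851 RefSeq starts. A match is a description of the letters only.
Snhg12: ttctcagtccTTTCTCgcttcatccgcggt
Snhg8: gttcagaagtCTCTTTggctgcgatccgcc
Gas5: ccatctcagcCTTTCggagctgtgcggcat
Snhg1: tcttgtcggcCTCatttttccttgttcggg

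Of the 1833 lncRNA rows 5.46% reached the minimum, and of the 14004 protein-coding rows 45.2% did. A pair of them held most of the signal. In the libraries labelled Cnr1+/+, Gm42418 was at 78116, 95548 and 84186 cpm, with 88977, 95571 and 102915 cpm in those labelled Cnr1-/-. This is between 15.5% and 17.7% of the listed values. RefSeq gives Gm42418 as a synonym of Rn18s-rs5, a pseudogene related to 18S ribosomal RNA. Malat1, a nuclear speckle RNA, followed with 9724, 11918 and 9519 cpm and with 9784, 10511 and 9786 cpm. E230029C05Rik, Gm2629 and Gm15503, for which no role is given here, were also among the 10 most abundant. Gm2629 had 102, 102 and 141 cpm with the label Cnr1+/+ and 139, 150.04 and 122 cpm with the label Cnr1-/- (log2 fold change 0.26, limma adjusted p = 0.839), and of the 15 alternatives it passed a nominal p under 0.05 only without Cnr1+/+ replicate 3 (0.42) or Cnr1-/- replicate 3 (0.34). Without Gm42418 and Malat1, the other 98 members summed to between 3249 and 3718 cpm.

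**Figure D1:**
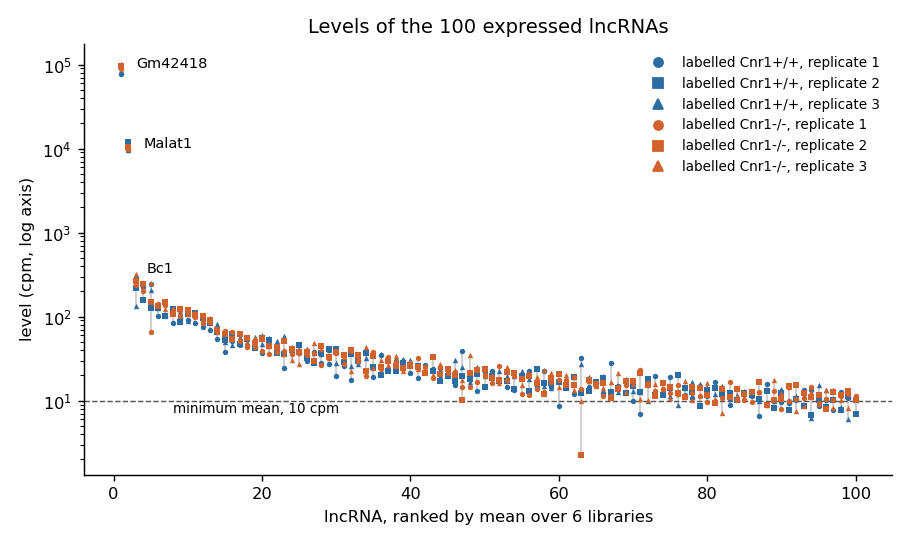
Level of each of the 100 lncRNAs in each of the 6 libraries (cpm, log axis), ranked by the mean. Points are libraries, grey lines join the lowest and the highest library, and the dashed line is the minimum mean of 10 cpm. Gm42418 and Malat1 stand above the rest, and the lowest point is Gm21860 at 2.24 cpm in the library labelled Cnr1-/- replicate 2.

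Besides this pair, 9 members lay between 100 and 1000 cpm, 6 between 50 and 100, 33 between 20 and 50, and 50 between 10 and 20 cpm. The median of the member means was 20.05 cpm, and that of the protein-coding genes tested was 26.1 cpm. The members closest to the minimum were AC160336.1 with a mean of 10.3 cpm and 5031425E22Rik with 10.1 cpm, and the rows just below it were Gm10384 with 9.71 and Gm15513 with 9.48 cpm. The spread between libraries was compared with that of protein-coding genes of the same level. For a mean between 10 and 20 cpm, the median SD within groups (log2) was 0.284 for lncRNAs and 0.282 for protein-coding genes. Between 20 and 50 cpm it was 0.242 and 0.208, and between 50 and 1000 cpm 0.184 and 0.156. Counting error alone would give a median of 0.135 for lncRNAs between 10 and 20 cpm. Gm20045 had the lowest coefficient of variation over the 6 libraries (4.36%). The 5 with the highest were Gm21860 (69.2%), G530011O06Rik (48.6%), Gm50455 (44.4%), Gm43813 (43.99%) and Gm47283 (41.7%). The values of Gm50455 were 28.4, 12.8 and 11.5 cpm in the libraries labelled Cnr1+/+, and 11.5, 10.8 and 16.7 cpm in those labelled Cnr1-/-, so its highest value lay in 1 library.

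The deposited gene type is not shared by every annotation. In GENCODE vM21, which held 94 of the symbols, Gm47283, Gm10134 and Gm21860 were protein coding. The RefSeq table lacked 29 of the symbols and called 63 of the others lncRNA, 4 pseudogenes and 4 protein coding. One of the latter was Ifi30, a lysosomal thiol reductase of antigen-presenting cells. Gm10076, a RefSeq pseudogene with a mean of 209 cpm, matched the ribosomal protein gene Rpl41 at 99.3% over its last 300 bases. The polyadenylation signal AATAAA stood in the last 50 bases of 55.3% of the members in vM21, of 32.6% of the other lncRNA genes and of 59.1% of the protein-coding genes. Of these sets, only the members had been chosen by level.

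Many members share their place with another gene. Of the 100, 12 overlapped a listed protein-coding gene on the same strand and 32 on the opposite strand, 1 of them in both ways. Gm33858, antisense to the microglial fractalkine receptor gene Cx3cr1, had a mean of 14.6 cpm, which was 0.288% of the 5075 cpm of Cx3cr1. Gm10138, antisense to Ivns1abp, had 19.4 cpm against 539 cpm. Gas5 and E230029C05Rik were above the genes they overlap, at 638% of Zbtb37 and 540% of Eed.

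The values also showed that some members shared reads with another gene, at the same place or elsewhere. The authors assigned reads that fit several genes by expectation-maximisation, so a value that is not a whole number of reads holds a fraction of a shared read. Of the 95 members under 2000 reads, 60 were whole (within 0.02 reads) in all 6 libraries. The figure was 4 of 12 for those overlapping a protein-coding gene on the same strand, 22 of 31 for those overlapping one on the opposite strand only, and 34 of 52 for the others. In 3 cases neither gene was whole in any library and their sum was whole in all 6: 1810026B05Rik with Chd2, Gm15832 with Rnf149, and Gm21860 with G530011O06Rik. The same held for Zeb2os with Gm27645, which overlaps it on the same strand. For these members the sum with the partner is counted directly and the division is an estimate.

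The comparison of the genotype labels asked whether lncRNAs of microglia-enriched cells differ without the cannabinoid receptor 1. No member changed more than 1.5-fold with an adjusted p under 0.1 (limma, Benjamini-Hochberg over all 6659 genes, with 10 members at an unadjusted p under 0.05), where 0.0901% of the genes tested passed. The smallest adjusted p of a member was 0.330. This count of 0 depended on the settings, as did that over all genes, which was 6. Gm21860 passed without a filter on low values (14 genes in all), with a replicate block (8 in all) and without Cnr1-/- replicate 1 (5 in all). Bc1 passed without Cnr1+/+ replicate 1 (14 in all), and Gm21860 and G530011O06Rik passed without Cnr1-/- replicate 3 (24 in all). At a nominal p under 0.05, 10 members passed with limma, against 6.02% of the genes tested. Of these, 6 were higher in the libraries labelled Cnr1-/-, against 5.09% of the genes tested, and 4 were lower, against 0.931%. With a change of more than 1.5-fold and a nominal p under 0.01, 2 members passed, Gm21860 and G530011O06Rik, against 0.721%. These 2 are also among the 10 and the 4 lower above. They share reads, so they are not 2 independent calls. The groups did not overlap for 8 members that were higher, against 8.85%, and for 6 that were lower, against 2.13%.

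The median log2 fold change of the members was 0.09, beside 0.08 over all genes tested, and 60 members were higher by label against 68.4% of all genes. These splits depended on the scaling between libraries. With each library centred on its median, 52 members were higher, beside 52.0% of all genes, and 11 passed a nominal p under 0.05 (3 higher and 8 lower), beside 5.63% of all genes (197 genes higher and 178 lower). With quantile normalisation 50 were higher, beside 49.7%, and 10 passed (2 higher and 8 lower), beside 5.41% (163 higher and 197 lower). Rescaling without Gm42418 and AY036118 gave 48 higher, beside 46.7%, and 10 that passed (2 higher and 8 lower), beside 5.17% (140 higher and 204 lower). The balance of calls thus moved towards lower over all genes as well, from 339 higher and 62 lower. Across these 3 scalings the median over all genes lay between -0.01 and 0.01. Bc1, Gm49980 and Snhg1 failed the threshold under all 3, and Gm43813 under the last 2. Instead, 1600022D10Rik, Firre, Gm13166 and Mir99ahg passed under all 3, each lower by label.

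**Figure D2:**
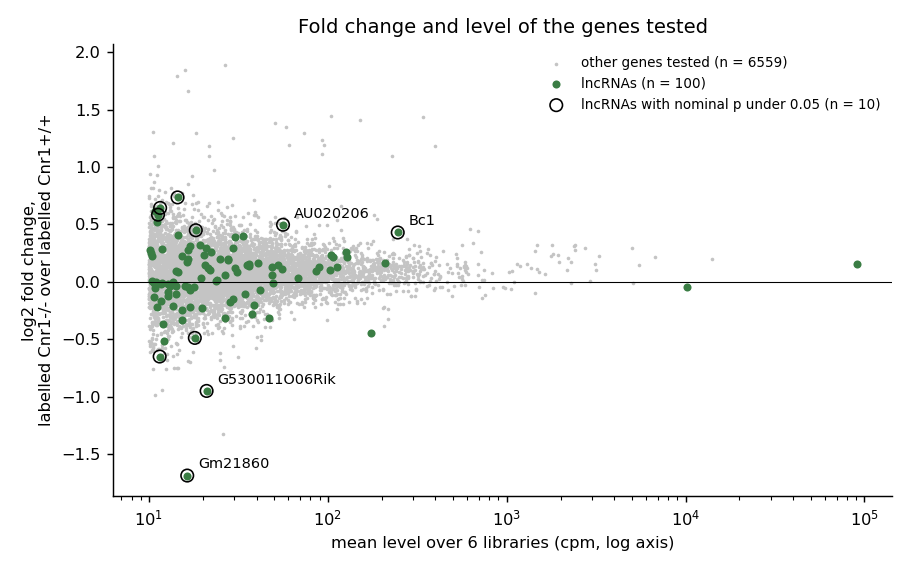
Log2 fold change (libraries labelled Cnr1-/- over those labelled Cnr1+/+) against mean level (cpm, log axis) for the 6659 genes tested. Green points are the 100 lncRNAs, rings mark the 10 with a nominal p under 0.05, and Gm21860 is the lowest point of all.

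Among the members, the lowest fold changes belonged to the pair with shared sequence. G530011O06Rik (mm10, chrX:169975043-169978917, minus strand) was at 39.2, 19.4 and 25.1 cpm in the libraries labelled Cnr1+/+ and at 14.5, 10.3 and 17.6 cpm in those labelled Cnr1-/-, and the groups did not overlap. Its log2 fold change was -0.95 (SE 0.25, limma nominal p = 0.000654, adjusted p = 0.363, two-sided exact permutation p = 0.1). A comparison of 3 with 3 libraries cannot give a smaller exact p than 0.1. Gm21860 (chrY:90752427-90755467, minus strand) had 32.5, 12.3 and 27.4 cpm and 13.9, 2.24 and 10.03 cpm, and replicate 1 labelled Cnr1-/- lay above replicate 2 labelled Cnr1+/+. Its log2 fold change was -1.69 (SE 0.43, limma nominal p = 0.000495, adjusted p = 0.330, two-sided exact permutation p = 0.2). Its lowest value lay in the library labelled Cnr1-/- replicate 2, and when this was left out the log2 fold change of Gm21860 was -0.91 and that of G530011O06Rik was -0.74, and both again had a nominal p under 0.05.

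Both lie near the end of their sex chromosome, where X and Y share a pseudoautosomal region. The sum of the pair, formed after the values were seen and therefore not tested, is a whole number of reads in each library. It was 553, 318 and 499 reads in the libraries labelled Cnr1+/+ and 262, 134 and 232 reads in those labelled Cnr1-/-. As cpm, the sum was 71.7, 31.7 and 52.5 against 28.4, 12.5 and 27.7, and the groups did not overlap. The means were 52.0 ± 20.01 and 22.8 ± 8.97 cpm (SD, n = 3 each), a log2 ratio of -1.19. In both groups replicate 2 was the lowest.

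**Figure D3:**
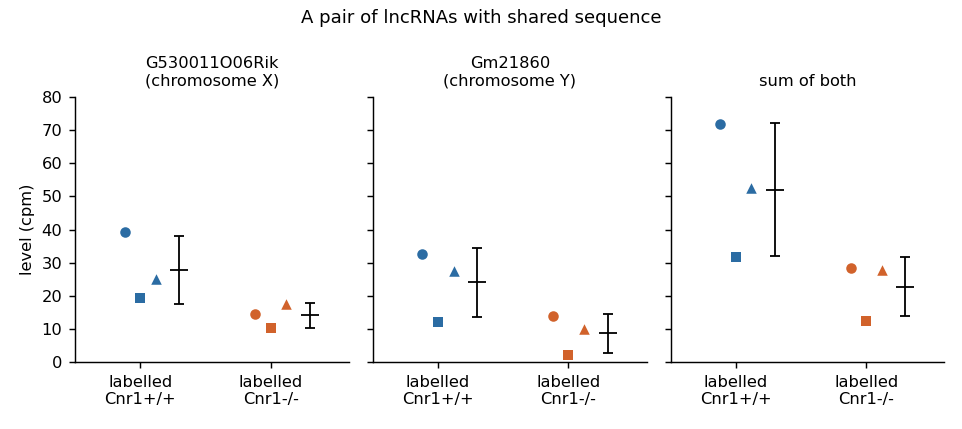
Level (cpm) of G530011O06Rik, of Gm21860 and of their sum in each library, by genotype label. Points are libraries, with circles for replicate 1, squares for replicate 2 and triangles for replicate 3, and bars are the mean ± SD (n = 3). In the sum, the libraries labelled Cnr1-/- reach 28.4 cpm and the lowest labelled Cnr1+/+ has 31.7 cpm.

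Neighbours of the pair were also measured. G530011O06Rik overlaps Mid1, a microtubule-associated ubiquitin ligase gene that crosses the pseudoautosomal boundary, on the opposite strand. In the libraries labelled Cnr1+/+, Mid1 was at 25.8, 15.4 and 10.6 cpm, with 7.69, 7.18 and 15.7 cpm in those labelled Cnr1-/-, so the groups overlapped (log2 fold change -0.75, nominal p under 0.05, limma adjusted p = 0.792). Mid1 was a whole number of reads in all 6 libraries. Gm47283, another lncRNA at the end of the Y chromosome, had 243, 126 and 209 cpm and 66.4, 151 and 253 cpm. Its highest and its lowest value were both in libraries labelled Cnr1-/- (log2 fold change -0.45, limma adjusted p = 0.857, exact permutation p = 0.7). It shares 211 bases without a mismatch with Gm21887, a synonym of Erdr1 in RefSeq. Without the library labelled Cnr1-/- replicate 3 its log2 fold change was -0.89, with a nominal limma p under 0.05, and without replicate 1 of that label it was 0.07.

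The other lncRNAs that were lower by label with a nominal p under 0.05 were Gm26532 and AI662270. In the libraries labelled Cnr1+/+, Gm26532 (chr8:84208920-84209609, plus strand) was at 15.8, 13.2 and 13.3 cpm, with 8.99, 8.77 and 8.94 cpm in those labelled Cnr1-/- (log2 fold change -0.65, SE 0.26, limma nominal p = 0.0189, adjusted p = 0.792, exact permutation p = 0.1). The groups did not overlap, its values were whole reads in every library, and without Cnr1+/+ replicate 1 it failed the nominal threshold (log2 fold change -0.56). AI662270 (chr11:83223576-83226604, plus strand), the only member from the list of myeloid and inflammation RNAs, had 20.3, 19.9 and 22.8 cpm against 11.9, 18.0 and 15.5 cpm (log2 fold change -0.49, SE 0.22, limma adjusted p = 0.809, exact permutation p = 0.1). It failed without Cnr1+/+ replicate 3 (log2 fold change -0.43) or Cnr1-/- replicate 1 (-0.33). It shares 277 bases with Gm11427, whose mean was 0.960 cpm. Morrbid, a regulator of myeloid cell survival in the same list, had a mean of 7.98 cpm and was below the minimum.

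Of the 6 that were higher by label, AU020206 (chr7:75769038-75782099, minus strand) had the smallest p. Its values were 38.0, 52.1 and 50.5 cpm with the label Cnr1+/+ and 68.0, 61.9 and 66.9 cpm with the label Cnr1-/-, without overlap (log2 fold change 0.50, SE 0.15, limma nominal p = 0.0033, adjusted p = 0.564, exact permutation p = 0.1). It kept a nominal p under 0.05 in each of the 15 alternatives, with log2 fold changes between 0.35 and 0.58. Each of the other 5 failed in some of them. Gm26740 had 6.62, 10.6 and 9.99 cpm against 12.7, 16.9 and 12.6 cpm (log2 fold change 0.64, SE 0.28, limma adjusted p = 0.792). Gm49980 had 8.30, 8.28 and 9.99 cpm against 13.1, 10.1 and 17.8 cpm (log2 fold change 0.59, SE 0.28, limma adjusted p = 0.822). Gm26740 failed without Cnr1+/+ replicate 1 (log2 fold change 0.43) or Cnr1-/- replicate 2 (0.51), and Gm49980 failed in 7 of 13 alternatives, 3 of which left out a library. Both were without overlap, and the pseudogene Hmgb1-ps8 overlaps Gm26740 on the same strand. Gm43813 (chr5:123406487-123411864, plus strand) had 6.88, 12.6 and 12.6 cpm against 23.2, 21.2 and 10.4 cpm, and the groups overlapped (log2 fold change 0.74, SE 0.30, limma adjusted p = 0.792). It failed the nominal threshold without Cnr1+/+ replicate 1 (log2 fold change 0.45), Cnr1-/- replicate 1 (0.52) or Cnr1-/- replicate 2 (0.59). Mlxip, a transcription factor gene on the same strand at the same place, had 8.69, 11.9 and 14.3 cpm against 19.6, 19.1 and 13.6 cpm (log2 fold change 0.59, limma adjusted p = 0.792). The last 300 bases of Gm43813 share a stretch with 70 other genes.

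**Figure D4:**
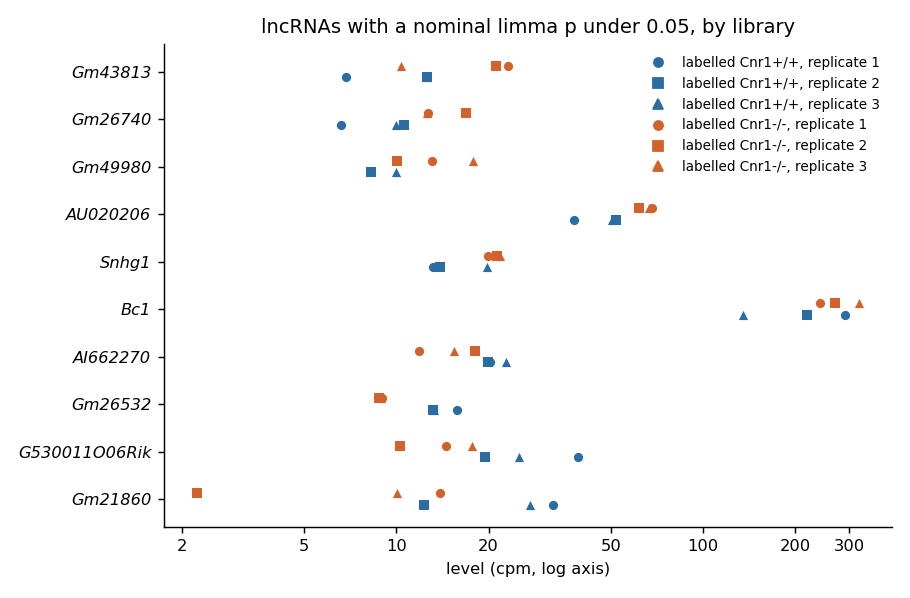
Level (cpm, log axis) in each library of the 10 lncRNAs with a nominal limma p under 0.05, ordered by log2 fold change. Blue points are libraries labelled Cnr1+/+ and orange points those labelled Cnr1-/-. The groups overlap for Gm43813, Bc1 and Gm21860 and are apart for the other 7.

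Among the cytoplasmic RNAs, Bc1 was the third most abundant member. It is a short RNA polymerase III transcript known from neuronal dendrites, where it represses translation. Its values were 291, 218 and 135 cpm with the label Cnr1+/+ and 241, 269 and 323 cpm with the label Cnr1-/-, and the groups overlapped (log2 fold change 0.43, SE 0.18, limma nominal p = 0.021, adjusted p = 0.792, exact permutation p = 0.3). The 9 neuronal markers summed to 54.4, 55.4 and 40.6 cpm and to 54.6, 51.3 and 52.5 cpm in the same libraries, so replicate 3 labelled Cnr1+/+ was the lowest for both. The 6 astrocyte markers summed to 427, 471 and 298 cpm and to 387, 480 and 549 cpm, lowest and highest in the same libraries as Bc1. The 7 oligodendrocyte markers did not follow Bc1, with their lowest sum in Cnr1-/- replicate 1 (423 cpm) and their highest in Cnr1+/+ replicate 2 (856 cpm). The part of neuronal or glial RNA in the result was not tested. Without Cnr1+/+ replicate 3 the log2 fold change of Bc1 was 0.13 and no longer passed, without Cnr1-/- replicate 3 it was 0.31 and did not pass either, and without Cnr1+/+ replicate 1 it was 0.68 (limma adjusted p = 0.0948). 2900097C17Rik, the mouse Norad, which binds Pumilio proteins, had 91.3, 108 and 89.9 cpm against 112, 121 and 107 cpm (log2 fold change 0.24, limma adjusted p = 0.839, exact permutation p = 0.2). In 1 of the 15 alternatives it passed a nominal p under 0.05, with log2 fold changes between 0.14 and 0.32 over all 15. Oip5os1, also known as Cyrano, had a log2 fold change of -0.01. Of this list 3 RNAs were members and 1 passed, beside 6.02% of all genes tested.

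Small nucleolar RNA host genes made up the largest group of known role, with 10 members of a list of 23. Of these, 1 passed a nominal p under 0.05 and 7 were higher by label, which is close to the shares over all genes tested (6.02% and 68.4%), with a median log2 fold change of 0.12 beside 0.08 over all genes tested. Snhg1 (chr19:8723475-8726443, plus strand) was at 13.2, 13.8 and 19.7 cpm in the libraries labelled Cnr1+/+ and at 19.9, 21.3 and 21.8 cpm in those labelled Cnr1-/-, so that replicate 3 labelled Cnr1+/+ nearly reached the other group (log2 fold change 0.45, SE 0.22, limma nominal p = 0.0493, adjusted p = 0.825, exact permutation p = 0.1). Snhg1 failed in 9 of 14 alternatives, and of the libraries left out in turn it passed only without Cnr1+/+ replicate 3 (log2 fold change 0.63). Gas5, which hosts many such RNAs and binds the glucocorticoid receptor, was the most abundant of them. It had 97.1, 86.3 and 113 cpm against 101, 123 and 120 cpm, with overlap (log2 fold change 0.22, 95% interval -0.06 to 0.50, limma adjusted p = 0.858, exact permutation p = 0.2). Over the 15 alternatives its log2 fold change lay between 0.12 and 0.32, and it passed a nominal p under 0.05 in 1. The other 8 had log2 fold changes between -0.09 (Snhg3) and 0.20 (Snhg20). With rescaling without Gm42418 and AY036118, 5 of the 10 were higher and the median was 0.03.

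None of the 4 nuclear body RNAs among the members passed, beside 6.02% of all genes tested. Malat1 had a log2 fold change of -0.04 (95% interval -0.37 to 0.29), and Neat1, the scaffold of paraspeckles, had 70.0, 83.1 and 95.9 cpm against 86.2, 90.1 and 87.3 cpm (log2 fold change 0.09, 95% interval -0.19 to 0.38). Tug1 had a log2 fold change of 0.06. Firre, which is transcribed from the X chromosome and organises nuclear architecture, had 29.3, 27.7 and 31.3 cpm against 23.6, 24.8 and 22.7 cpm, without overlap (log2 fold change -0.31, limma adjusted p = 0.839, exact permutation p = 0.1), and its nominal p fell under 0.05 with each of the 3 other scalings. The median of the 4 was 0.01 and turned to values between -0.09 and -0.07 under the 3 other scalings. Miat, also of this list, had a mean of 0.190 cpm.

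The rRNA-locus transcripts Gm42418 and Gm26917 had log2 fold changes of 0.16 (95% interval -0.37 to 0.69) and 0.14 (95% interval -0.25 to 0.52). Gm26917 had 37.6, 28.03 and 37.0 cpm against 36.6, 29.5 and 48.3 cpm. AY036118, which overlaps Gm42418 on the opposite strand, had a mean of 0.252 cpm.

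The microRNA hosts were Dleu2, which holds the miR-15a and miR-16-1 cluster, Mir142hg, which gives a microRNA of blood cells, and Mir99ahg. None of the 3 passed, beside the same 6.02%. Mir142hg had 22.6, 13.2 and 18.3 cpm against 11.7, 19.7 and 21.6 cpm (log2 fold change -0.04, 95% interval -0.56 to 0.47). Mir99ahg had 36.7, 45.7 and 41.6 cpm against 36.9, 38.3 and 27.3 cpm (log2 fold change -0.28, limma adjusted p = 0.857, exact permutation p = 0.3), and like Firre it passed under the other scalings. Dleu2 had a log2 fold change of 0.10.

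Of the imprinted and X-inactivation RNAs, 4 were members and none passed, again beside 6.02%. The imprinted Meg3, Kcnq1ot1 and Peg13 had log2 fold changes of -0.13, 0.11 and -0.11. Jpx, which lies beside Xist and activates it, had 19.4, 18.3 and 16.6 cpm against 14.6, 21.2 and 35.1 cpm (log2 fold change 0.29, 95% interval -0.21 to 0.79), so a single library labelled Cnr1-/- held its highest value. The median of the 4 was 0.00 and lay between -0.10 and -0.08 under the other scalings.

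**Figure D5:**
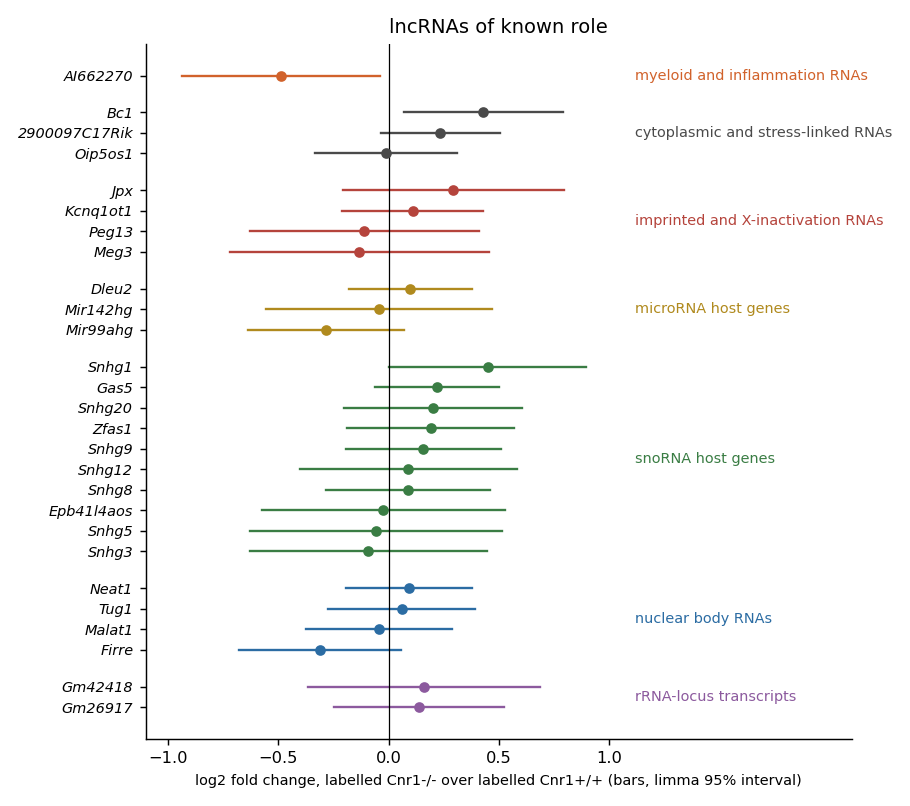
Log2 fold change (libraries labelled Cnr1-/- over those labelled Cnr1+/+) of the 27 lncRNAs of known role, grouped by role. Points are limma estimates and bars their 95% intervals. The intervals of Bc1, Snhg1 and AI662270 leave out 0, and those of the other 24 include it.

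The library labelled Cnr1-/- replicate 2 held the highest value of 17% of the members, against 31.7% of all genes tested, and replicate 1 labelled Cnr1+/+ the lowest of 33%, against 38.1%. Without the former library, 98 members were tested and 10 had a nominal p under 0.05, 7 of them among the 10 above, beside 3.81% of all genes tested. The 5 members on chromosome 4, which holds Cnr1, lay at least 93.1 Mb from it, and none of them had a nominal p under 0.05 as tested here, whereas Gm13166 among them passed under the 3 other scalings.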

How the data were processed

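RNA of CD11b+ cells from 3 mice labelled Cnr1+/+ and 3 labelled Cnr1-/- was analysed, 1 library per mouse. The values are CPM as deposited. The authors aligned the reads to mm10 with STAR, quantified them per gene in Partek by expectation-maximisation and scaled them with TMM, and whether the quantification used strand is not given in the sources used here. Between 83.4% and 85.5% of the values of a library were whole reads (within 0.02 of a read), too few for a test on counts. The read sizes behind this gave effective library sizes between 7708810 and 10723823 reads.

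Members and lists were chosen with earlier results of these data known. For 6659 genes whose mean reached 10, limma 3.58.1 (R 4.3.3, lmFit, eBayes with trend) compared log2(CPM + 0.1) between the labels, a scale that understates fold changes of low genes. Genotype was the only term, p-values were adjusted by Benjamini-Hochberg over all genes tested, and the study's thresholds were used. Single genes were also compared by two-sided exact permutation tests. The scripts were tested on simulated data.

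The genes named are the 10 most abundant members, those with a nominal p under 0.05, members of the role lists, the 5 most variable, those next to the minimum, and genes overlapping them. Gm20045, Gm33858, Gm10138, Gm10134, Ifi30, 1600022D10Rik, Gm13166, 1810026B05Rik, Gm15832 and Zeb2os, and the pair sum, were chosen after their values were seen. Sequences were taken from GENCODE vM21 and RefSeq (GRCm38.p6), and copies were searched with BLAST 2.17.0 (at least 50 bases, 95% identity, in the last 300 bases). Ends of genes are the file's stop less 1, which gave the vM21 coordinates for 89 of 94 members. Figures were drawn with matplotlib 3.10.9.

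Alternatives were a pseudocount of 1, no filter, a minimum mean of 20, median centring, quantile normalisation, rescaling without Gm42418 and AY036118, eBayes without trend, vooma weights, a block for the replicate number, and leaving out each library in turn.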

Additional observations from a re-analysis of the deposited data

How the results depend on the processing

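The count of lncRNAs with a nominal p under 0.05 was 10, and it fell to 4 with a minimum mean of 20, where only 50 of the 100 were tested (8% of them, beside 6.37% of all genes). It lay between 7 and 13 with each library left out, beside 3.81% to 9.07% of all genes. The count past the stricter nominal threshold (0.01, more than 1.5-fold) was 2, from Gm21860 and G530011O06Rik, which share reads. It was 1 with a minimum mean of 20 and 4 with rescaling without Gm42418 and AY036118, where over all genes it was 24 and 38 after 48. It lay between 2 and 5 with each library left out, and the 5 came without Cnr1-/- replicate 3, where 73 of all genes passed. The count past the adjusted threshold was 0 (10 at an unadjusted p under 0.05) and was 1 without a filter, namely Gm21860, where it rose from 6 to 14 over all genes. It lay between 0 and 2 with each library left out: 1 without Cnr1+/+ replicate 1 (Bc1, of 14 genes in all), 1 without Cnr1-/- replicate 1 (Gm21860, of 5) and 2 without Cnr1-/- replicate 3 (Gm21860 and G530011O06Rik, of 24). The cause was not tested.

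The median log2 fold change of 0.09 became 0.0025 with quantile normalisation and -0.0076 with rescaling, and lay between 0.02 and 0.14 with each library left out. With each library left out, Malat1 lay between -0.10 and 0.059 (positive without Cnr1+/+ replicate 2), Gm15503 between -0.034 and 0.23 (negative without Cnr1+/+ replicate 1), and Gm47283 between -0.89 and 0.074 (positive without Cnr1-/- replicate 1). Malat1 and Gm15503 passed a nominal p under 0.05 in no alternative, and Gm47283 passed without Cnr1+/+ replicate 2, Cnr1-/- replicate 2 or Cnr1-/- replicate 3, each time lower by label. Gm21860, G530011O06Rik and AU020206 kept their direction and a nominal p under 0.05 in every alternative in which they were tested.

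The labels number the replicates 1 to 3 in both groups. Same-numbered libraries did not deviate together (r = -0.06, -0.03 and -0.03 over genes), and the other pairs of libraries lay between -0.0036 and 0.04. This check cannot show whether same-numbered mice were littermates or were processed together, so whether the numbers pair the mice is not known. With the replicate number as a block, 13 lncRNAs had a nominal p under 0.05, the 10 among them, beside 6.32% of all genes. Past the adjusted threshold were 1 lncRNA, Gm21860 (limma adjusted p = 0.0022), and 8 genes in all.

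With 3 mice per group, an exact test cannot pass 0.05. lncRNAs between 10 and 20 CPM rest on few reads, and those sharing reads with another gene depend on how these were divided.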
